A study of Mus musculus with 4 samples.

Results

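Type 1 conventional dendritic cells, cDC1, are a rare class of antigen-presenting cells that take up material from dead cells and present it on MHC class I to CD8 T cells, a route called cross-presentation. Their development depends on the transcription factors IRF8 and BATF3 and on the FLT3 growth factor receptor. They are recognised by the chemokine receptor XCR1 and by CLEC9A, a receptor for actin filaments exposed on dead cells. In mouse tumours they are known as a source of the T cell attracting chemokines CXCL9 and CXCL10 and of interleukin 12.

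The cells were chosen by raw counts of unique molecular identifiers (UMIs), each standing for 1 captured transcript. A cell needed at least 300 genes, at most 15% mitochondrial UMIs and 2 or more UMIs of Xcr1 and Clec9a together. It was left out if it had any UMI of Cd3e, Cd3d, Ncr1, Cd79a or Cd209a, 10 or more C1q UMIs, or both Ccr7 and Fscn1. This kept 361 of 32396 filtered cells (1.11%), with 93 and 86 in the wild-type (WT) libraries and 113 and 69 in the Ufl1 cKO libraries. Since these genes chose the cells, their levels are described and not tested.

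The cells came from tumours of MC38, a mouse colon adenocarcinoma line, grown under the skin of WT or Ufl1 cKO mice. Ufl1 encodes the ligase that attaches the small modifier UFM1 to proteins, and the title of the series places its loss in T cells. The host mice were 8 weeks old when 100000 tumour cells were injected, tumours were taken on day 16 and no other treatment was given. Tumours were digested with collagenase, frozen, thawed and, by the labels, represent CD45+ immune cells, profiled on the 10x Genomics droplet platform. There were 2 WT and 2 cKO libraries. The Cre driver, the deleted exons and whether each library is 1 animal are not given in these sources, so p-values measure the spread between these libraries, which may be technical.

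Each library held 64141857 to 79747752 UMIs, and the gated cells summed to 1258929, 1049858, 1439015 and 920621 UMIs in the 2 WT and then the 2 cKO libraries, each by replicate number. Values for the 4 libraries are given below in that order, as UMIs scaled to 1000000 per library and gate (CPM), normalised within each comparison where a test follows. The median gated cell had 12554, 11850, 11525 and 13292 UMIs. The gated cells of cKO replicate 2 had 261 UMIs of Xist, the transcript of the inactive X chromosome, and none of Ddx3y, a Y-linked gene, while those of the other 3 libraries had 40 to 59 Ddx3y UMIs and no Xist. Sex and genotype are therefore not balanced. WT replicate 1 and cKO replicate 2 shared 479 cell barcodes, against 85 to 104 for the other pairs, and the shallower copy of a shared barcode had a median of 638 UMIs. No shared barcode passed the gate in both libraries, and 14 gated cells of WT replicate 1 had a partner in cKO replicate 2.

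The label held for most but not all of the gated cells. A set of 58 cells (16.1%), with 19, 13, 13 and 13 per library, had 2 or more UMIs of Siglech, the receptor that marks plasmacytoid dendritic cells, the main producers of type I interferon. Of the other 303 cells, 176 had Xcr1 and 127 had Clec9a only. Summed per cell over 22 genes of a list of cDC1 surface and accessory genes, the Siglech cells had a median of 437 CPM, the Clec9a-only cells 4204 and the Xcr1 cells 5358. Over 11 plasmacytoid genes the order was the other way round, with medians of 15000, 169 and 60.0 CPM. Single cells reached 14120 CPM among the Clec9a-only cells and 9353 among the Xcr1 cells, and 15 gated cells had 1 Siglech UMI. The set without the Siglech cells therefore still holds some cells with plasmacytoid transcripts. These fractions were defined after the cells were examined and are described without a test. The gated set is therefore called by its rule, the Xcr1/Clec9a gate, and values without the Siglech cells are given beside several results.

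**Figure D1:**
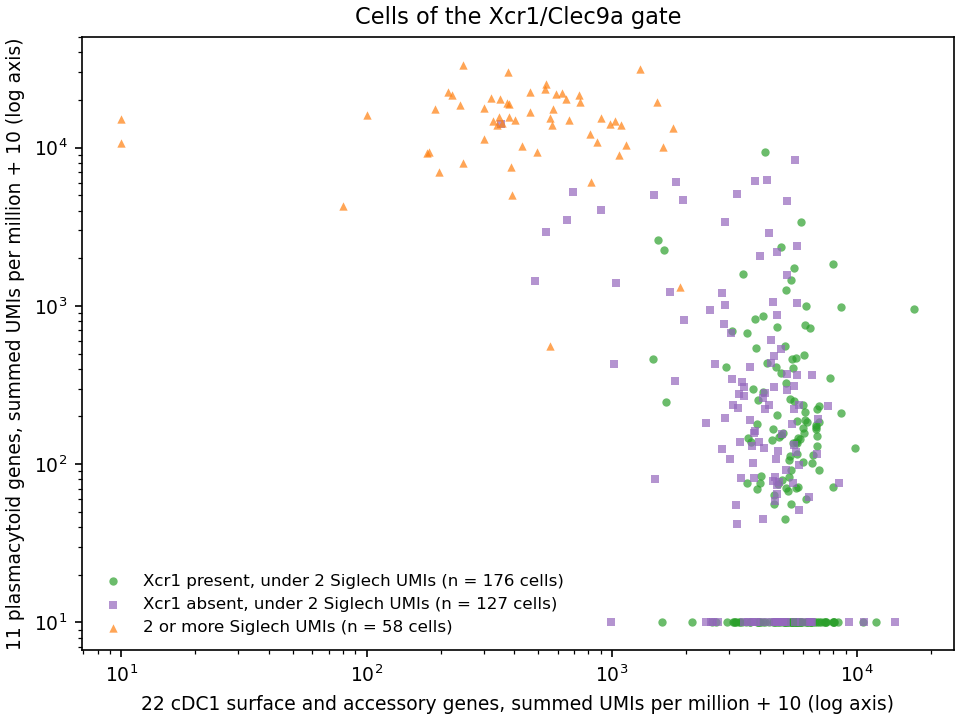
Each point is 1 of the 361 gated cells, with the summed CPM of 22 cDC1 genes on the horizontal axis and of 11 plasmacytoid genes on the vertical axis, both on log scales after adding 10. The 58 cells with 2 or more Siglech UMIs lie towards the upper left, at a median of 437 CPM for cDC1 genes, while the 176 cells with Xcr1 lie to the right, at a median of 5358 CPM.

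Single genes showed the same division. Batf3 was at 5.06 CPM in the Siglech cells, 218 in the Clec9a-only cells and 239 in the Xcr1 cells. Naaa, which encodes a lysosomal amidase, was at 21.9, 639.9 and 918 CPM, and Itgae, the integrin CD103, at 0, 76.8 and 255. Tcf4, a transcription factor required for plasmacytoid identity, was at 995 CPM in the Siglech cells, 80.1 in the Clec9a-only cells and 25.5 in the Xcr1 cells. Ly6d was at 2836, 2.78 and 0 CPM. A separate plasmacytoid gate, with 2 or more Siglech UMIs and none of Xcr1 or Clec9a, had Tcf4 at 794 CPM, Ly6d at 2802 and Batf3 at 17.3. Ly6d was thus close to its level in the Siglech cells and Tcf4 somewhat lower. Batf3 was low in both, though higher in the plasmacytoid gate. Flt3 did not follow this division, at 123, 126 and 134 CPM in the 3 fractions and 121 in the plasmacytoid gate, and Irf8, at 2487, 1205 and 1691 CPM, was also high in all of them.

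The threshold itself ran through a gradient. Cells with 1 UMI of Xcr1 or Clec9a that met the other clauses numbered 248, with Batf3 at 85.4 CPM and Naaa at 196 CPM. The 120 cells just inside, with 2 UMIs, had Batf3 at 138.5 and Naaa at 476 CPM, and the 241 cells with 3 or more had Batf3 at 223.5 and Naaa at 777 CPM. In the same order Siglech was at 461.6, 491.3 and 115 CPM, and Lyz2, a macrophage marker, at 2021, 1012 and 464 CPM. The part of other cell types in this gradient was not tested. The clause on Cd209a alone removed 90 cells, that on C1q 39, that on Cd3e and Cd3d 32 and that on Ccr7 with Fscn1 9. Among the members 11 had 5 to 9 C1q UMIs, and 3 cells with 10 to 14 fell just outside.

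The shares of gated cells overlapped between the genotypes. The gate held 1.28%, 0.919%, 1.45% and 0.863% of filtered cells, with exact 95% binomial intervals of 1.03 to 1.57, 0.736 to 1.13, 1.20 to 1.75 and 0.672 to 1.09, so that the highest and the lowest value both came from cKO libraries. The means were 1.10% ± 0.255 in WT and 1.16% ± 0.418 in cKO (SD, n = 2 each), with an exact two-sided permutation p of 1. Among the 4 dendritic gates together, the share was 18.7%, 20.6%, 29.1% and 20.7% (exact permutation p = 0.333, which is the smallest that 2 against 2 libraries can give), and the difference of 5.22 percentage points was 0.991 without cKO replicate 1. Shares of captured cells depend on digestion, freezing and sorting, and fewer cells of a type and less RNA per cell cannot be told apart at the gate, since a cell with less RNA passes it less often.

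A gate on Cd209a was chosen for conventional dendritic cells of the other kind, cDC2. Against it, the Xcr1/Clec9a gate had the full set of tested cDC1 surface and accessory genes at higher levels. Most genes of the cDC2 type were at lower levels. The comparison gate had 2 or more UMIs of Cd209a and none of Xcr1 or Clec9a (794 cells, with 262, 205, 176 and 151 per library). Counts were summed per library and gate and tested with edgeR's quasi-likelihood test with the library as a block, and the 13 genes that any gate used were left out. At a Benjamini-Hochberg adjusted p of 0.05, 2987 of 8221 genes differed (36.3%), with 1413 higher (17.2%) and 1574 lower (19.1%). Genes that go along with Xcr1, Clec9a or Cd209a in single cells differ partly because those genes chose the cells, so these p-values describe how evenly a difference appeared in the 4 libraries.

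All 22 tested members of the cDC1 surface and accessory list were higher in the Xcr1/Clec9a gate, with a median log2 fold change of 3.47, against 0.0073 over all 8221 genes. Without the Siglech cells 21 of 22 remained higher. Gcsam, which encodes a signalling adaptor known from germinal centre B cells, had 333 UMIs in the gate and 1 in the Cd209a gate, a ratio of 716 with a counting interval of 128 to 28370. Itgae was at 128, 174, 185 and 116 CPM in the gate and at 8.50, 10.8, 7.82 and 6.15 in the Cd209a gate (log2 fold change 4.15 ± 0.14 SE, edgeR adjusted p = 1.83e-12). The lowest library of the gate was above the highest of the other for Itgae. Naaa (2.35 ± 0.08), Ppt1, a lysosomal thioesterase (3.47 ± 0.13), Rab7b, a small GTPase of late endosomes (4.42 ± 0.14), Snx22, a sorting nexin (5.38 ± 0.21), and Cd36, a scavenger receptor (4.98 ± 0.27), were likewise higher in all 4 libraries. Cadm1, an adhesion molecule used to mark cDC1 across species, was at 15.9, 40.03, 28.4 and 12.6 CPM against 1.52, 3.14, 0.868 and 0 (4.02 ± 0.36).

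**Figure D2:**
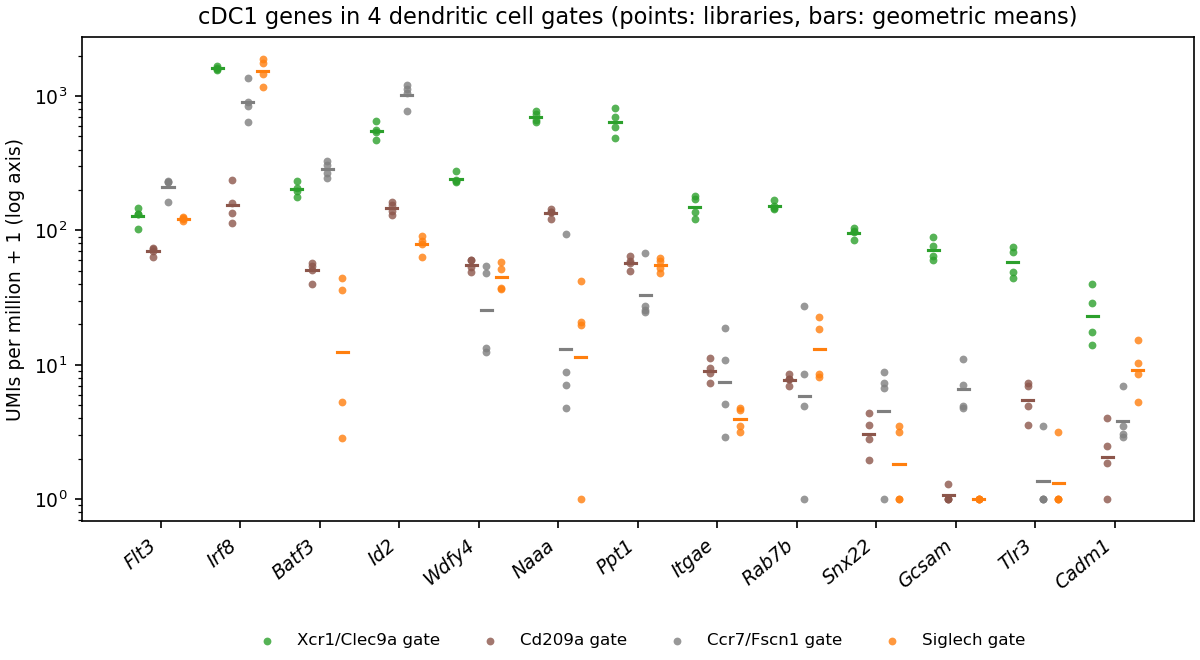
Levels of 13 cDC1 genes in CPM plus 1, on a log axis, in the 4 dendritic gates; each point is 1 of 4 libraries and each bar the geometric mean. Flt3 and Irf8 are high in more than 1 gate, whereas Naaa, Ppt1, Itgae, Rab7b, Snx22, Gcsam and Tlr3 lie highest in the Xcr1/Clec9a gate in every library.

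Cd8a was the exception in this list. It encodes the CD8 alpha chain that marks cDC1 of mouse lymphoid organs, and it was at 43.8, 69.3, 56.8 and 85.0 CPM in the gate against 7.09 to 10.9 in the Cd209a gate (log2 fold change 2.81 ± 0.21). Of its UMIs 263 lay in the Siglech cells, 10 in the Clec9a-only cells and 17 in the Xcr1 cells, at 444, 5.56 and 7.46 CPM. Without the Siglech cells the difference in Cd8a was −0.32 ± 0.35 (edgeR adjusted p = 0.502). With each cell thinned to 2000 UMIs, 2 of 299 cells without Siglech had a Cd8a UMI (0.669%, exact binomial interval 0.0811 to 2.40), against 31.2% of T cells.

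Plasmacytoid markers behaved in the same way. In the whole gate 10 of 12 tested plasmacytoid markers were higher than in the Cd209a gate and none lower, and without the Siglech cells 1 of 11 was higher and 9 were lower, with a median of −2.66. Ccr9, a gut-homing chemokine receptor, had a log2 fold change of 2.53 ± 0.19 in the whole gate and −2.72 ± 0.42 without those cells. Klk1 and Ly6d, which were among the higher genes of largest fold change in the whole gate, likewise rested on them. Ly6d turned from 3.17 ± 0.20 to −5.01 ± 0.51.

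Of 10 transcription factors that act in dendritic cell development, 3 were higher and 5 lower. Irf8 was at 1597, 1615, 1599 and 1547 CPM in the gate and at 161, 117, 241 and 129.5 in the Cd209a gate (log2 fold change 3.33 ± 0.12, edgeR adjusted p = 3.83e-12). The 4 gate values lay within a narrow range far above the others. Batf3 was at 168, 200.1, 212 and 224 CPM against 39.2, 59.1, 54.7 and 48.7 (1.998 ± 0.10), and Id2, an inhibitor of E proteins such as TCF4, was higher by 1.89 ± 0.10. Irf4 and Zeb2, factors of cDC2, plasmacytoid cells and monocytes, were lower by −1.57 ± 0.22 and −1.66 ± 0.11. Without the Siglech cells these were −3.30 ± 0.32 and −2.42 ± 0.15. Zbtb46, which is shared by conventional dendritic cells, was at 32.5 to 42.3 CPM in the gate and 28.2 to 37.7 in the Cd209a gate and did not pass the test (0.12 ± 0.16).

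Among growth factor receptors, Flt3 was higher by 0.85 ± 0.10 and Kit, the stem cell factor receptor, by 1.15 ± 0.15. Csf1r, the receptor for macrophage colony-stimulating factor, was at 28.0, 40.03, 32.0 and 31.5 CPM in the gate and at 177, 168, 168 and 172 in the Cd209a gate (−2.39 ± 0.12).

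Sensors of microbial and dead-cell material were divided by gene. Of 16 tested Toll-like receptors and nucleic acid sensors 4 were higher and 7 lower. Tlr3, the sensor of double-stranded RNA, was at 46.1, 69.3, 76.0 and 42.0 CPM against 3.95, 6.27, 2.61 and 6.15 (log2 fold change 3.61 ± 0.23). Tlr11 and Tlr12, sensors of parasite profilin in mice, were also higher (5.02 ± 0.47 and 3.54 ± 0.32), and Tlr2, a sensor of bacterial lipoproteins, was lower (−1.69 ± 0.16). Tlr7, also a gene of plasmacytoid cells, was higher in the whole gate by 1.09 ± 0.34 (edgeR adjusted p = 0.0188). Of its UMIs, however, 69 lay in the 58 Siglech cells, 3 in the Clec9a-only cells together and 3 in the Xcr1 cells together. Without the Siglech cells Tlr7 was not tested. Havcr2, which encodes the checkpoint receptor TIM-3, was at 97.5, 110.3, 124 and 101 CPM against 71.1, 79.7, 63.8 and 43.5 (0.75 ± 0.13).

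Antigen presentation differed in its parts rather than as a whole. Of 25 genes of MHC class I and cross-presentation 9 were higher and 5 lower. The immunoproteasome subunit Psmb9 was at 603, 709, 692 and 651 CPM against 327, 352, 336 and 304 (log2 fold change 1.01 ± 0.07), the peptide transporter subunit Tap2 was higher by 0.86 ± 0.09, and Wdfy4, which is needed for cross-presentation by mouse cDC1, by 2.12 ± 0.10. Cybb, the catalytic subunit of the phagocyte NADPH oxidase, was lower (−0.99 ± 0.08), and without the Siglech cells it was lower by −2.40 ± 0.14. Of 11 class II genes 1 was higher and 5 were lower, and without the Siglech cells 4 were higher and 4 lower. H2-Ab1, a class II beta chain, was at 7104 to 9531 CPM in the gate and 6553 to 8969 in the Cd209a gate and did not pass the test (0.07 ± 0.07), but it passed without the Siglech cells (0.31 ± 0.06, edgeR adjusted p = 0.000611). Cathepsin S, Ctss, which trims the class II invariant chain, was lower in all 4 libraries (−1.14 ± 0.07).

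Costimulatory genes were mostly lower than in the Cd209a gate. Of 12 tested costimulatory and checkpoint ligands 10 were lower and 1, Havcr2, was higher. Cd40 was at 49.9, 55.6, 78.9 and 58.8 CPM against 162, 159, 197 and 150.3 (log2 fold change −1.47 ± 0.11), Cd80 was lower by −2.01 ± 0.24 and Cd274, the PD-1 ligand PD-L1, by −1.13 ± 0.19. Of 9 cytokine genes 3 were lower and 1 higher. The inflammatory cytokine gene Il1b was lower by −1.03 ± 0.06. Il12a, a subunit of interleukin 12, was at 2.84 to 13.6 CPM against 0 to 6.07 (1.497 ± 0.55, edgeR adjusted p = 0.0416). These levels are low. In the comparison with the plasmacytoid gate described below, Il12a was called lower in the Xcr1/Clec9a gate. Its value without the Siglech cells is not given here.

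The interferon-inducible chemokine genes Cxcl9 and Cxcl10 differed from each other. Cxcl10 was at 128, 157, 245 and 390.4 CPM in the gate and at 1094, 1143, 1520.1 and 2135 in the Cd209a gate (log2 fold change −2.74 ± 0.09). In both gates the cKO libraries had the higher Cxcl10 values. Cxcl9 was at 199, 291, 198 and 92.3 CPM against 165, 82.0, 333 and 62.4 and did not pass the test (0.41 ± 0.25). In cells thinned to 2000 UMIs, Cxcl9 was detected in 14.01% of gated cells (50 of 357, exact binomial interval 10.6 to 18.0) and in 0.819% of T cells. Of 7 chemokine receptors 2 were higher and 5 lower, and Cxcr3, the receptor for both chemokines, was at 17.1 to 23.4 CPM against 0.304 to 1.89 (4.32 ± 0.41).

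Interferon response genes were lower in the gate as a group. Of 25 tested type I interferon response genes 19 were lower and 1 higher (median −0.96), and of 22 interferon gamma response genes 16 were lower and none higher (median −0.92). Ifit3, an antiviral protein induced by interferon, was at 30.2, 61.5, 151 and 176 CPM against 333, 379, 324 and 422 (log2 fold change −1.92 ± 0.24). Isg15, a ubiquitin-like modifier, was lower by −0.42 ± 0.08. Irf7, a factor that amplifies type I interferon, was at 842 to 1399.9 CPM against 822 to 1098 and did not pass the test (0.15 ± 0.07), but it passed without the Siglech cells (0.19 ± 0.07, edgeR adjusted p = 0.0353).

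**Figure D3:**
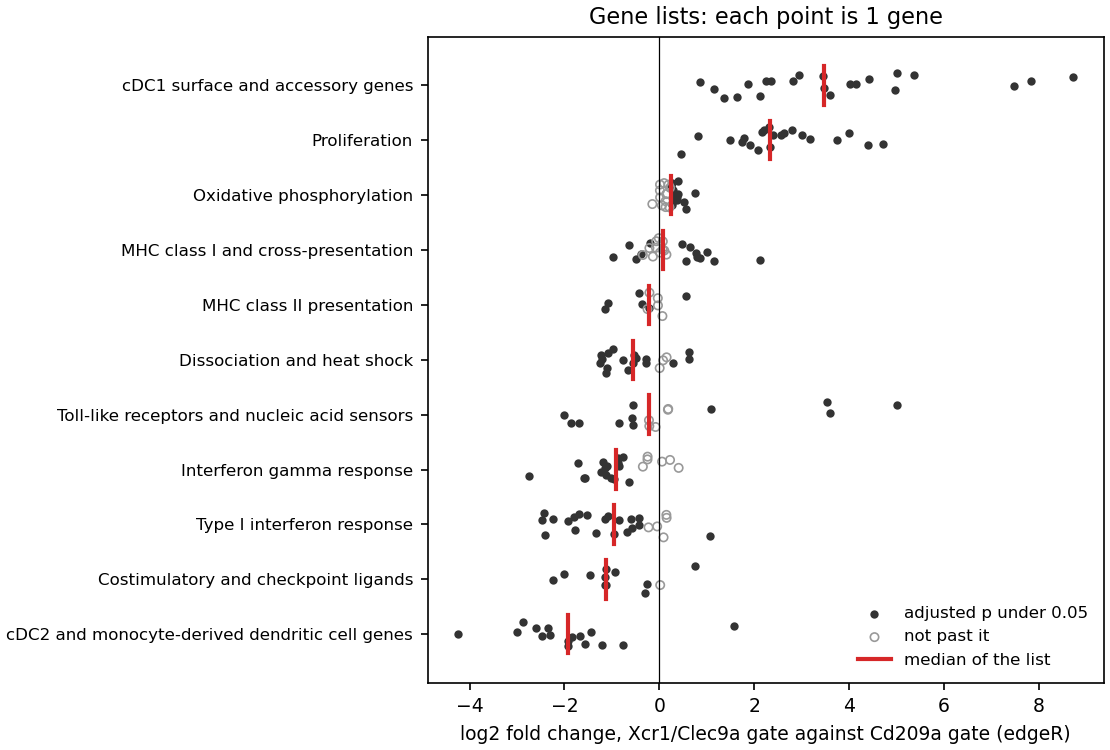
Log2 fold changes of the Xcr1/Clec9a gate against the Cd209a gate by gene list; each point is 1 gene, filled where the edgeR adjusted p was under 0.05, and the red bar is the median of the list. The cDC1 surface and accessory list (median 3.47) and the proliferation list (median 2.33) lie to the right of 0, and the cDC2 and monocyte-derived list (median −1.93) to the left.

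Proliferation genes were also higher. All 21 tested members passed the test in that direction, with a median log2 fold change of 2.33. Mki67, a marker of cycling cells, was at 43.1, 33.2, 52.6 and 25.2 CPM against 8.20, 8.06, 5.64 and 9.45 (2.31 ± 0.23), and Top2a, a topoisomerase of S and G2 phase, was higher by 3.19 ± 0.21. Rrm2, a ribonucleotide reductase subunit, and Pclaf, a PCNA-binding protein, were among the higher genes of largest fold change (3.99 ± 0.24 and 4.17 ± 0.23). With cells thinned to 2000 UMIs, 67 of 357 gated cells had a UMI of Mki67, Top2a, Rrm2 or Pclaf, with shares of 18.3%, 19.0%, 18.6% and 19.4% in the 4 libraries. Of the 58 Siglech cells 2 had such a UMI. Mki67 alone was seen in 4.202% of thinned gated cells, below the 8.80% of T cells.

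Of 26 oxidative phosphorylation genes 14 were higher and none lower (median 0.26). Of 20 genes of dissociation and heat shock 14 were lower and 3 higher (median −0.55), and Hspa1a, an inducible heat shock protein, was at 4207, 3133, 4919 and 5276 CPM against 7559.7, 5786, 9391 and 6804 (−0.76 ± 0.07). Handling-related transcripts thus differed between the gates, and their part in the other differences was not tested.

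Of 16 tested genes of cDC2 and monocyte-derived dendritic cells 15 were lower and 1, the inhibitory lectin Clec12a, was higher (1.57 ± 0.21). Of 10 tested monocyte markers 6 were lower and 1 higher, and of 7 tested macrophage markers 4 were lower and 1 higher. The part of monocyte-like or macrophage-like cells of the Cd209a gate in the differences was not tested. Mgl2, a galactose lectin, was at 5.29, 4.88, 9.24 and 2.10 CPM against 182, 40.8, 142 and 42.5 (log2 fold change −4.24 ± 0.22). Sirpa, the receptor for the don't-eat-me signal CD47, was at 19.2 to 30.4 CPM against 120.1 to 128 (−2.35 ± 0.13, and −3.19 ± 0.16 without the Siglech cells). Ccl17, a ligand of CCR4, was lower by −3.61 ± 0.34, Ccl9 by −3.51 ± 0.19, the membrane proteins Tmem176a and Tmem176b by −3.75 ± 0.15 and −3.61 ± 0.13, Dab2, an endocytic adaptor, by −3.39 ± 0.14, and Timp1, a metalloproteinase inhibitor, by −3.71 ± 0.30.

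The migratory gate, cells with both Ccr7 and Fscn1 (293 cells, with 98, 67, 66 and 62 per library), had the highest count of differing genes among the 3 class comparisons. Conventional dendritic cells of either type can enter this mature state, in which they are known to carry costimulatory molecules and to move to lymph nodes. In the same test 3607 of 6799 genes differed (53.1%), with 1781 higher (26.2%) and 1826 lower (26.9%) in the Xcr1/Clec9a gate. The rule removed cells with both Ccr7 and Fscn1 from the Xcr1/Clec9a gate and required both in the migratory gate. Genes that go along with them in single cells, such as the migratory programme, differ partly through this choice. The p-values therefore describe how evenly a difference appeared across the libraries.

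All 23 tested genes of the migratory programme other than the gate genes were lower in the Xcr1/Clec9a gate, with a median log2 fold change of −4.93 against −0.0020 over all genes. Nudt17 had 0 UMIs in the Xcr1/Clec9a gate and 771 in the migratory gate, at least 519-fold lower against a floor of 3 counts over the group. Ccl22, a chemokine that attracts regulatory T cells, was at 2.22, 3.74, 4.10 and 3.06 CPM against 779.6, 328, 579 and 441 (−7.30 ± 0.23). Relb, an NF-kappa-B subunit, was at 31.5 to 62.3 CPM against 603 to 892 (−4.18 ± 0.17).

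Of 15 costimulatory and checkpoint ligands 12 were lower and 2 higher. Cd274 was at 15.5, 27.1, 24.6 and 27.6 CPM against 380.3, 418, 363 and 614 (log2 fold change −4.21 ± 0.17), and Cd200, an inhibitory ligand, was lower by −5.76 ± 0.22 (−6.58 ± 0.28 without the Siglech cells) and Cd40 by −2.51 ± 0.14. Il12b, the p40 subunit of interleukin 12, was at 0.740, 0, 8.21 and 3.06 CPM against 523, 606, 596 and 886 (−7.58 ± 0.33). Its UMIs in the Xcr1/Clec9a gate came from 4 of 361 cells. The rule had left out cells with both Ccr7 and Fscn1, of which 9 met its other clauses. The count of Il12b cells therefore does not cover cDC1 in the migratory state. Tnfrsf4, the costimulatory receptor OX40, had 2 UMIs against 528, a ratio of 533 with a counting interval of 147 to 4413. Of 25 class I genes 14 were lower and 6 higher. H2-K1, a class I heavy chain, was at 1134 to 1539.6 CPM against 4141 to 5701 (−1.80 ± 0.10).

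The cDC1 list was again mostly higher, 19 of 22 against the migratory gate, with 2 lower. Tlr3 had 279 UMIs against 2, a ratio of 69.1 with a counting interval of 18.95 to 573, and Naaa was higher by 4.60 ± 0.44, Itgae by 3.88 ± 0.30 and Ckb, a creatine kinase, by 3.69 ± 0.28. The 2 lower members were Flt3, at 122, 128, 144 and 95.0 CPM against 229, 241, 175 and 241 (−0.86 ± 0.16), and Ly75, the endocytic receptor DEC-205, at 9.19 to 28.0 CPM against 215 to 275 (−3.72 ± 0.19). Irf8 was higher (0.71 ± 0.15), whereas Batf3 and Id2 were lower (−0.62 ± 0.13 and −1.02 ± 0.13).

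Genes of the endoplasmic reticulum stress list were higher than in the migratory gate for 12 of 18 members and lower for 1. Hspa5, the chaperone BiP, was at 784, 984, 821 and 1089 CPM against 515, 334, 357 and 473 (log2 fold change 1.13 ± 0.14). Xbp1, a factor of the unfolded protein response that cDC1 are known to use, was at 169 to 239 CPM against 42.3 to 97.9 (1.72 ± 0.20), and Manf, a secreted reticulum protein, was higher by 1.75 ± 0.19. Of 19 proliferation genes 18 were higher and 1 lower.

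The plasmacytoid gate (188 cells, with 44, 59, 33 and 52 per library) was compared in the same way. In all 2318 of 6525 genes differed (35.5%), with 1131 higher (17.3%) and 1187 lower (18.2%), and 2744 differed without the Siglech cells. Those 58 cells sit within the Xcr1/Clec9a gate, so fold changes against the plasmacytoid gate are pulled towards 0 where plasmacytoid genes are concerned. Genes that go along with Siglech, Xcr1 or Clec9a in single cells also differ partly because those genes chose the cells.

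MHC class II genes were higher for 8 of 11 members and lower for none, with a median log2 fold change of 1.54 against −0.0095 over all genes. H2-Ab1 was at 8155, 10129.5, 9234 and 7658 CPM against 3227, 1311, 1242 and 1666 (2.34 ± 0.23). Cst3, the protease inhibitor cystatin C, was at 15469 to 23908 CPM against 887 to 1726 (3.97 ± 0.21), and Ciita, the activator of class II genes, was higher by 1.47 ± 0.30.

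Of 20 cDC1 surface and accessory genes 18 were higher and 1, Cd8a, lower. Gcsam had 333 UMIs against 0, at least 39.8-fold higher against a floor of 3 counts over the group. Tlr3 had 279 against 1, a ratio of 100.1 with a counting interval of 17.8 to 3969. Id2 was at 485, 715, 607 and 557 CPM against 57.4, 76.3, 78.5 and 83.8 (3.00 ± 0.13), Batf3 was higher by 3.67 ± 0.46 and Zbtb46 by 1.68 ± 0.34. Irf8, at 1668 to 1745 CPM against 1073 to 1794, did not pass the test (0.23 ± 0.12). Cxcl9 was at 217, 309, 209.5 and 99.6 CPM against 16.1, 3.63, 0 and 25.9 (4.01 ± 0.51).

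Plasmacytoid markers were lower for 11 of 12 members, with a median of −2.42 in the whole gate and −6.56 without the Siglech cells, and Irf7 was higher (0.51 ± 0.17). Tcf4 was lower by −2.09 ± 0.19 and without those cells by −3.82 ± 0.20. Tlr7, the sensor of single-stranded RNA, was at 16.5, 4.15, 23.4 and 22.6 CPM against 94.2, 99.9, 92.1 and 75.8 (−2.47 ± 0.34), and −5.70 ± 0.39 without them.

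Between genotypes no gene of the Xcr1/Clec9a gate passed the test. The sums per library were compared between cKO and WT with edgeR's quasi-likelihood test, and 0 of 7521 genes (0%) had an adjusted p under 0.05, while 316 had an unadjusted p under 0.05. DESeq2 called 1 gene, Ifit3. Values are given below as descriptions beside 2 shares over all genes: in 16.8% of the 7521 genes both cKO libraries were above both WT libraries, and in 15.5% both were below.

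Ufl1 was low and did not separate the groups. It was at 13.8, 21.5, 22.1 and 19.2 CPM (log2 difference 0.26 ± 0.34, cKO minus WT), from 89 UMIs in 69 cells. UMIs at the end of a transcript do not show whether a deleted exon is present, so this is no check of a deletion. Ufm1, the modifier itself, was at 112, 98.7, 85.0 and 71.3 CPM (−0.43 ± 0.19, edgeR adjusted p = 0.999), and 2 of 8 genes of UFM1 conjugation had a positive difference (median −0.054).

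The type I interferon response list leaned to cKO in each of its tested genes. All 24 had a positive difference, with a median log2 difference of 0.84 against 0.0071 over all genes, and for 21 of 24 both cKO libraries were above both WT libraries. None passed the adjusted threshold. Ifit3 was at 30.8, 61.5, 152 and 179 CPM (1.87 ± 0.27, edgeR adjusted p = 0.275), so the groups did not overlap. Oasl1, an antiviral oligoadenylate synthetase-like protein, was at 83.0, 96.7, 186 and 179 CPM (1.03 ± 0.17, adjusted p = 0.275). Ifit1, a sensor of foreign RNA caps, was at 6.92, 21.5, 43.6 and 55.4 CPM and Cmpk2, a mitochondrial nucleotide kinase, at 22.3, 30.3, 54.3 and 70.3. Isg15 was at 784, 829, 1072 and 1361 CPM (0.59 ± 0.16). Members with near-identical copies, such as Ifit3 and Ifit3b or Oas1a and Oas1g, may share reads.

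**Figure D4:**
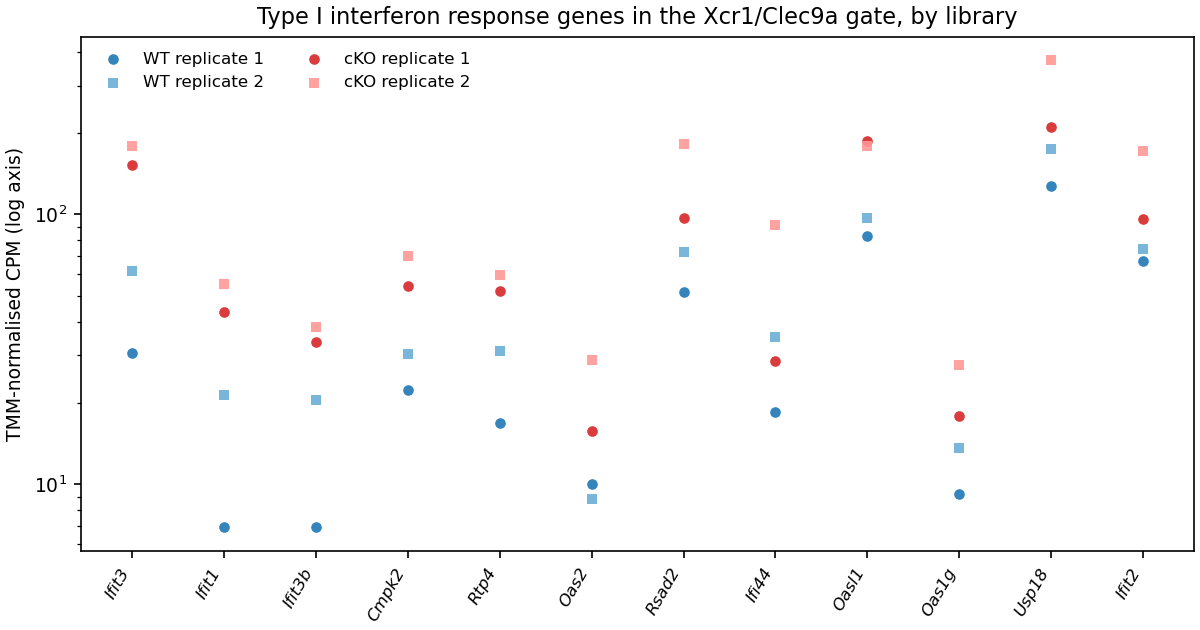
TMM-normalised CPM, on a log axis, of the 12 type I interferon response genes with the largest log2 difference between genotypes in the Xcr1/Clec9a gate, 1 point per library, ordered by that difference. For 11 of the 12 genes both cKO libraries (red) lie above both WT libraries (blue), and none passed the adjusted threshold.

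Over 25 genes the summed level of the list was 5023, 5217, 6185 and 8593 CPM in the gate. The median difference was 0.79 without the Siglech cells (23 of 24 positive), 0.71 without shared barcodes, 0.58 with Xcr1 and Clec9a both required and 0.54 without cKO replicate 2. The list stood in the same order in T cells, at 4434, 5863, 6188 and 8133 CPM, and in the migratory gate both cKO libraries (5204 and 8350) were above both WT libraries (4595 and 4005). In the Cd209a gate the groups overlapped, at 7264, 8462, 8027 and 10360 CPM, as they did in the plasmacytoid gate, at 8488, 9315, 6731 and 10740. Beside it the dissociation and heat shock list summed to 28390, 25370, 29040 and 36900 CPM in the gate, with 16 of 20 genes positive (median 0.28), and its part in the interferon values was not tested.

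Few cells carried these transcripts. Ifit3 UMIs came from 12, 11, 13 and 18 cells, and in cKO replicate 1 a single cell held 79 of 213 UMIs. At 2000 UMIs a cell, Ifit3 was seen in 3.23%, 8.33%, 7.08% and 13.4% of gated cells, and in 12.2%, 14.4%, 14.2% and 21.6% of T cells. The shares of gated cells overlapped between genotypes, unlike the sums. Over the 14 genes read in this way no exact permutation p was under 0.333, the smallest possible.

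The promoters of the interferon genes named here are shown because they carry, or in Oasl1 lack, the paired motif that interferon regulatory factors bind. Each is the 250 bases before the RefSeq start, in the build GRCm38.p6, and lies for Ifit3 at chr19:34583279-34583528 (plus strand), for Ifit1 at chr19:34640639-34640888 (plus strand), for Oasl1 at chr5:114922990-114923239 (plus strand) and for Cxcl10 at chr5:92348890-92349139 (minus strand). Capitals mark GAAA, any 2 bases (NN) and GAAA in direct succession on either strand, without overlap.
Ifit3: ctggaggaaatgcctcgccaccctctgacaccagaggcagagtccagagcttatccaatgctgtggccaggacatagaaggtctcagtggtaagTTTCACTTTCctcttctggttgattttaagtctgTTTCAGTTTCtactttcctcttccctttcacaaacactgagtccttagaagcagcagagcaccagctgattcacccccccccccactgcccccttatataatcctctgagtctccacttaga
Ifit1: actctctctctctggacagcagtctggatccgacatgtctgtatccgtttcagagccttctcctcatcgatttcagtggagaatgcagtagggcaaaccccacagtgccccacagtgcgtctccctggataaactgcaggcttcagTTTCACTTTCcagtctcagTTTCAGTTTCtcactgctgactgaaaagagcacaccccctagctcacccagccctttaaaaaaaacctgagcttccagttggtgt
Oasl1: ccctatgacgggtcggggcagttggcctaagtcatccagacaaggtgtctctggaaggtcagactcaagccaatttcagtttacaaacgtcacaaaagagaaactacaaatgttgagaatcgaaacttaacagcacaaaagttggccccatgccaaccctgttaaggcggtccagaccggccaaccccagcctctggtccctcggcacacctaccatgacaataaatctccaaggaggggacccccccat
Cxcl10: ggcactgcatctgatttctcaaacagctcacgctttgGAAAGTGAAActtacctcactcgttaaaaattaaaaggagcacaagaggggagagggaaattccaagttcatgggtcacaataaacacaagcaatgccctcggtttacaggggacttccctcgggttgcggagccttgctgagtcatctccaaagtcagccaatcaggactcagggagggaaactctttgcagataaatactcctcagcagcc

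The motif stood 2 times in the Ifit3 window, 2 times in that of Ifit1 and once in that of Cxcl10, and these letters were not found in the Oasl1 window. It was in 978 of 32851 promoter windows of the same length (2.98%), in 12 of 23 windows of the type I interferon list (52.2%) and in 3 of 21 of the cDC1 surface and accessory list (14.3%), those of Gpr141b, Ifi205 and Tlr11. A match is a description of the letters and not a measured binding site.

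Most interferon gamma response genes and chemokines leaned the same way, with wider spread. Of 21 interferon gamma response genes 19 had a positive difference (median 0.44). The groups did not overlap for 13 with cKO above and for 1 with cKO below. Iigp1, an immunity-related GTPase, was at 17.7, 8.79, 39.998 and 92.6 CPM and Cxcl10 at 131, 157, 246 and 396 (log2 difference 1.15 ± 0.22, edgeR adjusted p = 0.391). Of 11 chemokines 8 were positive (median 0.93), and the groups did not overlap for 6 with cKO above and for 2 with cKO below. The sums of Cxcl9 went the other way: in the values given above both cKO libraries were below both WT libraries, cKO replicate 1 only narrowly. The shares of gated cells with a Cxcl9 UMI did not. Without thinning they were 18.3%, 17.4%, 28.3% and 23.2%, with both cKO libraries above. At 2000 UMIs a cell they overlapped, at 9.68%, 14.3%, 19.5% and 10.4%. Ccl5, a chemokine that attracts T cells, was at 19.99, 8.79, 52.9 and 68.1 CPM (1.999 ± 0.34, adjusted p = 0.275), but 1 cell each held 22 of 74 and 24 of 64 of the UMIs in the cKO libraries. Cxcl2, a neutrophil chemokine, was at 74.6, 86.0, 149 and 262 CPM, and 226 of the 246 UMIs in cKO replicate 2 came from 1 cell.

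Several other genes of smallest p came from few cells. Il1r2, the decoy receptor for interleukin 1, was at 38.4, 35.2, 83.6 and 94.8 CPM (log2 difference 1.26 ± 0.21, edgeR adjusted p = 0.275), from 15, 5, 20 and 11 cells. Il27, a subunit of interleukin 27, was detected in 9 cells and 17 of the 20 UMIs of cKO replicate 1 were in 1 of them. Pgam2, a phosphoglycerate mutase of muscle, had 0 UMIs in the WT libraries and 43 in the cKO libraries, at least 14.02-fold higher against a floor of 3 counts over the group, and all 43 lay in Siglech cells. Tnf was at 20.8, 22.5, 46.4 and 165 CPM (2.24 ± 0.53), with 130 of the 155 UMIs of cKO replicate 2 in Siglech cells. Fcgr1, the high-affinity IgG receptor of macrophages, was at 71.5, 76.2, 126 and 115 CPM and came from 102 cells. The macrophage list of 12 genes summed to 1043, 1190.0, 1472 and 1045 CPM, so as a whole it overlapped between genotypes. The list of cDC2 and monocyte-derived dendritic cell genes summed to 1246, 1081, 1308 and 1672 CPM in the gate and the monocyte list of 10 genes to 4172, 3936, 4195 and 4414, both without overlap and with cKO above (exact permutation p = 0.333, the smallest possible). Of 12 tested genes of the first list 6 had both cKO libraries above both WT libraries. The part of such transcripts in the interferon values was not tested.

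**Figure D5:**
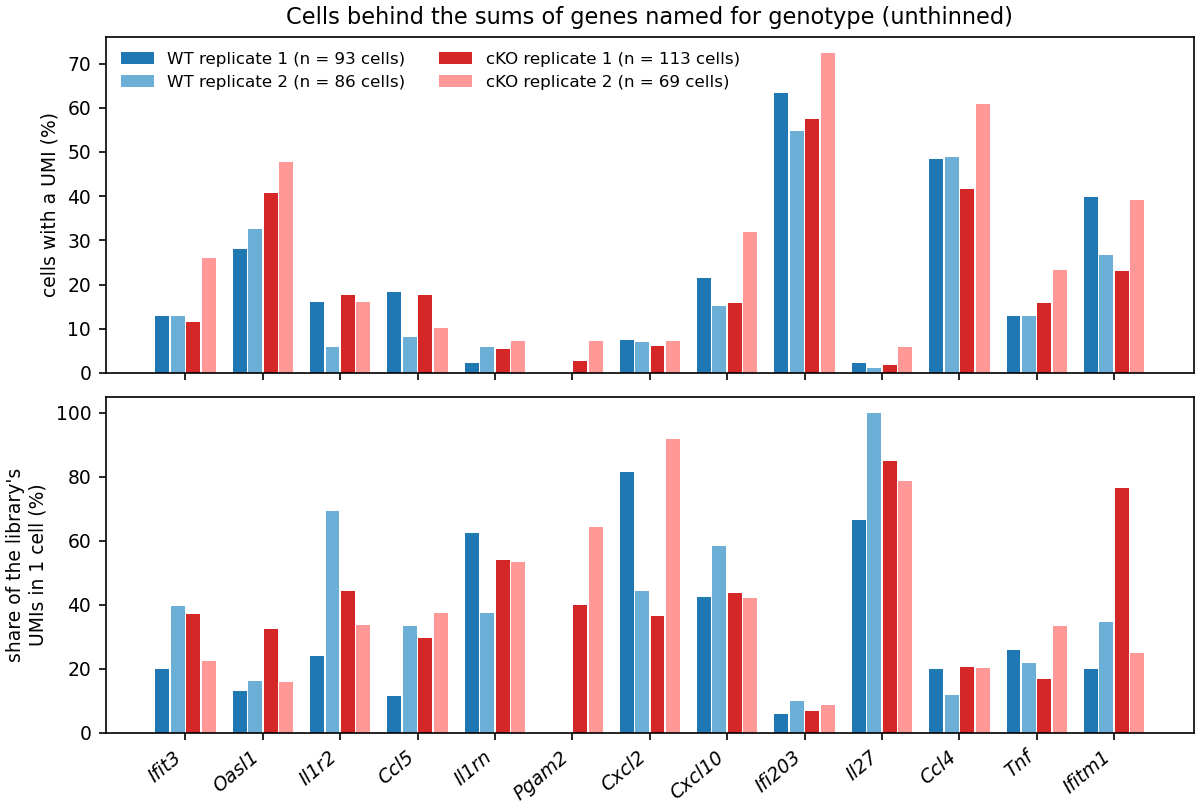
Upper panel, share of gated cells with at least 1 UMI of each gene by library, without thinning; lower panel, share of the library's UMIs of that gene that came from its highest cell. For Cxcl2 in cKO replicate 2, 226 of 246 UMIs came from 1 cell, and for Ifitm1 in cKO replicate 1, 444 of 581.

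No cDC1 surface or accessory gene passed the test between genotypes. Of 22 surface and accessory genes 7 had a positive difference (median −0.14), and the groups did not overlap for 2 with cKO above and for 7 with cKO below. Naaa was at 707, 786, 661 and 644 CPM (log2 difference −0.19 ± 0.14), Gcsam at 73.0, 89.9, 65.0 and 58.6 (−0.39 ± 0.20) and Batf3 at 171, 200.2, 213 and 227 (0.25 ± 0.16). None of these passed the test. Of 11 class II genes 3 were positive (median −0.10), of 25 class I genes 14 (median 0.037), of 24 proliferation genes 15 (median 0.061) and of 18 reticulum stress genes 10 (median 0.071).

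Whether the genotype difference itself differed between the Xcr1/Clec9a and Cd209a gates was tested by the interaction of gate and genotype, and 6 of 8842 genes passed (0.0679%), with 5 positive (0.0565%) and 1 negative (0.0113%). Ifit3 was at 30.1, 61.3, 151 and 176 CPM in the gate and at 334, 381, 325 and 423 in the Cd209a gate (interaction 1.83 ± 0.23 on the log2 scale, edgeR adjusted p = 0.00304). Only the first gate showed a gap between genotypes. Il1r2 was at 37.6, 35.1, 82.8 and 93.2 CPM against 415, 305, 236 and 267, so the cKO libraries were the higher ones in one gate and the lower ones in the other (1.796 ± 0.21, adjusted p = 0.00295). Ccl4, an inflammatory chemokine, Tnf and Ifitm1, an interferon-induced membrane protein, also had positive interactions and Cyp7b1, an oxysterol hydroxylase, a negative one. Without the Siglech cells, Ccl4 (1.19 ± 0.22, adjusted p = 0.161), Tnf (0.85 ± 0.39, adjusted p = 0.988) and Ifitm1 (0.98 ± 0.20, adjusted p = 0.239) no longer passed. Of 25 type I interferon response genes 24 had a positive interaction, with a median of 0.51 against 0.017 over all genes. With Xcr1 and Clec9a both required 18 of 25 were positive, with a median of 0.31.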

How the data were processed

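Single-cell RNA libraries of CD45+ cells from MC38 tumours of WT and Ufl1 cKO mice (2 libraries each) were analysed from the deposited count matrices, which hold UMI counts per gene and cell barcode and, per the file headers, came from Cell Ranger 6.1.1. CASAVA 1.8 and Seurat appear in the submitters' processing notes, and the build was not given in the sources used here. The members and gene lists were chosen with earlier results of these data known.

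The filter of 300 genes and 15% mitochondrial UMIs removed 405 barcodes. Scrublet's automatic threshold called 0 cells and had not worked, so doublets were kept, and removal of the 2117 highest scores (16 of them gated) was an alternative. Counts were summed per library and gate, filtered with filterByExpr, normalised by TMM and tested with edgeR 4.0.16 (quasi-likelihood, Benjamini-Hochberg threshold 0.05) in R 4.3.3. Class comparisons had the library as a block; the genotype fit did not, and same-numbered libraries did not deviate together. The SE after ± for a log2 value was derived from the test, as the absolute log2 value divided by the square root of its F statistic. Single values over libraries were tested by exact permutation. Cells were thinned to 2000 UMIs before shares of cells were read, which left out 4 gated cells. Intervals and floors of 3 counts cover counting error only. Python 3.11.15 with scanpy 1.11.5 was used, and the scripts were tested on simulated data.

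Named genes were Ufl1, the 10 genes of smallest p between genotypes, up to 4 members per list of smallest p, the 15 higher and 10 lower genes of largest fold change per class comparison, and list members. Alternatives were DESeq2 1.42.0, its size factors, no filter on low counts, doublets removed, stricter gates and cell filters, thinning, the replicate block and each library left out. Leaving out the Siglech cells or shared barcodes was chosen after seeing the data.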

Additional observations from a re-analysis of the deposited data

Results flagged for a closer look

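The genotype difference in the Xcr1/Clec9a gate differed from that in the Cd209a gate for 6 genes, by the interaction term in edgeR (cKO minus WT in the first gate, minus the same in the second, on the log2 scale). The interaction was 1.796 for Il1r2 (adjusted p = 0.00295), 1.83 for Ifit3 (adjusted p = 0.00304) and 1.53 for Ccl4 (adjusted p = 0.0212). It was −4.67 for Cyp7b1 (adjusted p = 0.0212), 2.15 for Tnf (adjusted p = 0.0247) and 1.05 for Ifitm1 (adjusted p = 0.0413).

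In the Xcr1/Clec9a gate Cyp7b1 had 31 UMIs in WT and 2 in cKO, so its fitted value depends on the prior count. In cKO replicate 1 a single cell held 444 of the 581 Ifitm1 UMIs, and in cKO replicate 2 the Siglech cells held 130 of the 155 Tnf UMIs. Over the 14 alternative settings Il1r2 and Ifit3 each passed in 10, Ccl4 and Cyp7b1 in 9, Tnf in 8 and Ifitm1 in 6. With Xcr1 and Clec9a both required none of the 6 passed, and without WT replicate 1 none of the 6 passed. The part of the single cells in these differences was not tested.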

How the results depend on the processing

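The class comparisons kept most directions, while genotype calls moved with the setting. Between genotypes, 0 genes became 1 with DESeq2, 61 without a filter on low counts, 43 with the replicate block and 0 to 9 with 1 library left out (5 without WT replicate 1, 1 without WT replicate 2 and 9 without cKO replicate 1). Same-numbered libraries did not deviate together (r = −0.046 over 7521 genes), but 1 correlation from 2 libraries per group cannot exclude a pairing. For the interaction, 6 genes became 3 with DESeq2, 52 without the filter, 15 with doublets removed, 0 with Xcr1 and Clec9a both required and 1 to 25 with 1 library left out (1 without WT replicate 1, 25 without WT replicate 2 and 13 without cKO replicate 1). Against the Cd209a gate 2987 genes became 1751 with DESeq2 and 1041 with thinning, against the migratory gate 3607 became 1262 with thinning, and against the plasmacytoid gate 2318 became 1397 with DESeq2 and 759 with thinning, which also left fewer genes to test. The share difference ran from −0.237 to 0.354 percentage points with 1 library left out, turning negative at −0.122 without WT replicate 2 and −0.237 without cKO replicate 1. Of the 14 genes read as shares of cells, the 4 whose genotypes did not overlap became 6 to 11 with 1 library left out. In the sums 16.8% of 7521 genes did not overlap with cKO above and 15.5% with cKO below. For shares of cells, non-overlap of 2 against 2 libraries is an exact permutation p of 0.333, and a group of 1 library separates more readily. Neither count is therefore read as a result about these genes.

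Against the Cd209a gate, requiring both Xcr1 and Clec9a gave log2 fold changes of −2.23 for Ly6d, −1.49 for Atp1b1, 0.12 for Cd74, −0.066 for Cd8a and −1.49 for Ly6c2. Without the Siglech cells they were −5.01 for Ly6d, 0.0084 for Cd74, −2.72 for Ccr9, −0.32 for Cd8a and −0.97 for Ly6c2. With 1 library left out, Zbtb46 ran from −0.023 (without WT replicate 2) to 0.20 and Cxcl9 from −0.067 (without WT replicate 2) to 0.89. Between genotypes Ufl1 turned to −0.064 with both receptors required and ran from −0.062 (without WT replicate 1) to 0.59 with 1 library left out, and without cells holding C1q UMIs Ifitm1 turned to −0.034, with an interaction of −0.017. Except where a setting leaves fewer genes or cells, the cause was not tested. The genotype comparison rested on sums over 69 to 113 gated cells per library.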
